A study of Homo sapiens with 6 samples.

Results

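The transcripts described here are 9 genes used in brain tissue as markers of astrocytes and of radial glia, namely FABP7, HOPX, AQP4, AQP1, HEPACAM, GLUL, ALDH1L1, CLU and APOE. They were listed by name as markers of these cell types, with earlier results of these data known, and are 9 of the 58174 genes in the table. The samples were poly(A)-selected RNA from KNS42 cells, a line derived from a pediatric glioblastoma (GBM), grown in serum-containing medium. Control cells received a control siRNA (siC, n = 3 libraries), and knockdown cells received siRNA against Musashi1 (siMSI1, n = 3 libraries). All 6 libraries were made from cells harvested 72 h after transfection, and no other genotype or treatment separates the groups. One cell line stands behind every value, and the labels do not say whether the replicates came from separate cultures, so p-values measure only the spread between these libraries. The comparison addresses how the loss of MSI1 changes mRNA abundance, here for genes tied to glial identity.

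Radial glia are the elongated stem cells of the developing brain, and astrocytes arise from them late in development. Radial glia contain the lipid carrier FABP7, and those of the outer zone of the human cortex also contain the homeodomain protein HOPX. Mature astrocytes regulate water and ions at their end-feet, recycle the neurotransmitter glutamate and supply lipids to neurons. MSI1 is an RNA-binding protein of neural stem and progenitor cells that contacts RNA words with a UAG core, such as GUAG, often in 3′UTRs.

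Values are FPKM, that is, fragments scaled to gene length and to the reads of the library. Comparison of FPKM levels between genes rests on the gene lengths used. Fold changes (siMSI1 over siC) were fitted with limma on log2(FPKM + 0.1), which understates the change of low genes, and were called at an adjusted p of at most 0.01. The 15069 genes with a mean of at least 0.5 FPKM over all libraries were tested, and 6 of the 9 markers were among them. The libraries held 14448513 to 18024080 reads on genes in siC and 13087025 to 14700593 in siMSI1. Within siMSI1, replicate 3 stood apart, with a chi-square per degree of freedom of 9.83 and 11.2 against the other libraries, which differed by 4.14 from each other. Without it, the log2 fold changes of the called markers were -1.05 for FABP7, 0.89 for AQP4 and 0.48 for CLU, all still past the threshold. CLU lost its call when any other single library was left out. Within siC, the pairs of libraries differed by 3.55 to 8.21, with replicates 2 and 3 the furthest apart. MSI1 itself fell from 64.2 ± 2.53 FPKM (SD, n = 3) to 11.8 ± 0.575 FPKM (SD, n = 3), or 18.5% of siC.

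Upon MSI1 knockdown, the radial glia marker FABP7 fell, and the astrocyte markers AQP4 and CLU rose. AQP1, GLUL and APOE did not pass the threshold, and HOPX, ALDH1L1 and HEPACAM were at or next to 0 in both groups. Thus, 3 of the 6 tested markers were called, 2 higher and 1 lower, where 11.0% of all tested genes were called, 5.15% higher and 5.83% lower. The groups did not overlap in 5 of the 6 tested markers, against 42.8% of all tested genes. With 3 libraries per group, an exact permutation test of a single gene (two-sided) cannot give a p below 0.1, so the calls rest on the fit over all genes, which shares the estimate of the spread between genes. The median log2 fold change of the 6 tested markers was 0.39, and that of all tested genes was 1.46e-05.

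**Figure D1:**
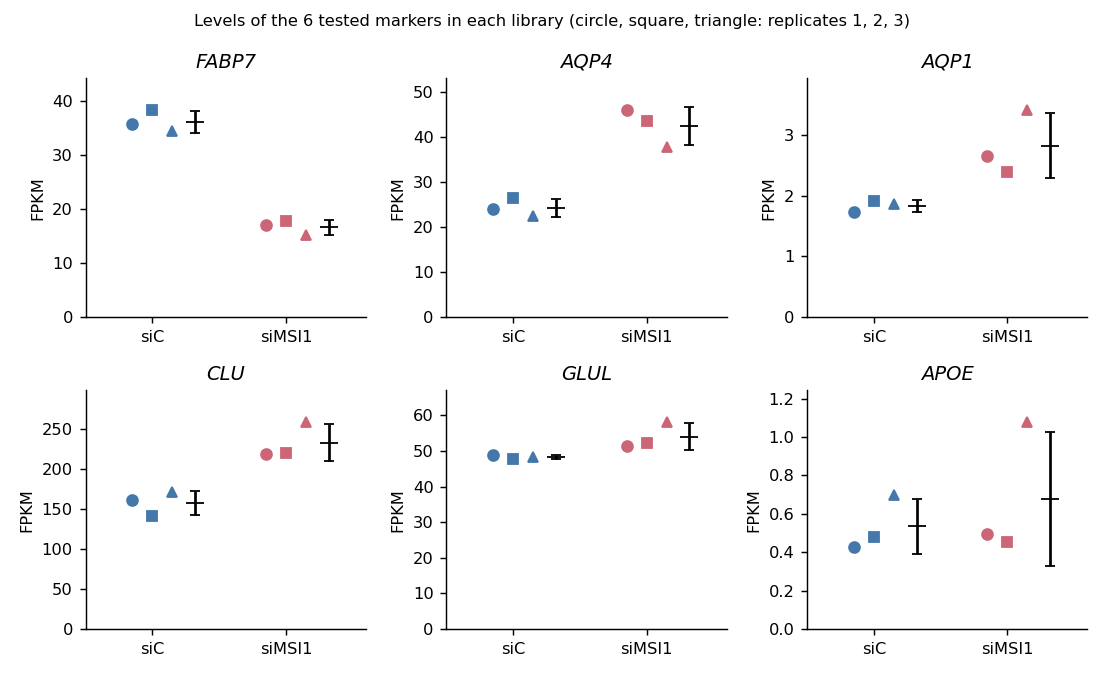
FPKM (y axis, from 0, scaled per panel) of the 6 tested markers in each siC and siMSI1 library; symbols mark replicates 1 to 3 and black bars the mean ± SD (n = 3). FABP7 libraries of siMSI1 lie below those of siC, those of AQP4, AQP1, CLU and GLUL lie above, and those of APOE overlap.

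Among the radial glia markers, FABP7 (ENSG00000164434, GRCh38 chr6:122779716-122784074, plus strand) encodes brain fatty acid binding protein, which carries polyunsaturated fatty acids in radial glia and immature astrocytes. In siC, FABP7 was at 35.7, 38.4 and 34.3 FPKM in replicates 1, 2 and 3. In siMSI1, it was at 17.0, 17.8 and 15.1 FPKM. The groups were far apart, and the lowest siC library was above every siMSI1 library. The mean fell from 36.1 ± 2.05 FPKM to 16.6 ± 1.38 FPKM (SD, n = 3 each), or 46.0% of siC. The log2 fold change was -1.12 (SE 0.082, 95% CI -1.31 to -0.93, adjusted p = 0.000274 in limma). These values rest on 1348 to 1894 reads per siC library and 591 to 685 reads per siMSI1 library. FABP7 passed the threshold in 16 of 16 processing alternatives, with a highest adjusted p of 0.00286.

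HOPX (ENSG00000171476, chr4:56647989-56681877, minus strand), a small homeodomain protein that does not bind DNA by itself, had no more than 1 read in any library. A count of 3 reads would correspond to 0.0214 to 0.0295 FPKM, so HOPX was not detectable above this level in either group. The fall of FABP7 therefore has no counterpart to compare in the other radial glia marker of the 9.

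Genes that share the family or the cell type of FABP7 were read from the same fit. Of 7 other genes of the fatty acid and retinoid carrier family, 3 were tested and 0 were called by limma, where 11.0% of all tested genes were called. In that family, 1 gene had an unadjusted p under 0.05 in limma, and voom on the recovered reads called 0. FABP5, the family member that often accompanies FABP7 in neural progenitors, had 5 reads at most in a library. CRABP2, a retinoic acid carrier and the most abundant of these genes, was at 1.83 ± 0.861 FPKM in siC and at 2.12 ± 0.203 FPKM in siMSI1 (adjusted p = 0.525). FABP6, an ileal bile acid carrier named after its values were seen, was at 0.922 ± 0.271 FPKM in siC and at 1.92 ± 0.405 FPKM in siMSI1, without overlap and from at most 36 reads in a library (log2 fold change 1.0, adjusted p = 0.0221). FABP7 was the only gene of this family above 3 FPKM in any library.

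Of 17 other radial glia markers, 12 were tested and 0 were called by limma, where 11.0% of all tested genes were called. In that list, 7 genes had an unadjusted p under 0.05, and voom on the recovered reads called 3. The median log2 fold change of the list was -0.14. VIM, an intermediate filament protein and the most abundant of these genes, was at 1035 ± 33.8 FPKM in siC and at 865 ± 62.1 FPKM in siMSI1 (log2 fold change -0.26, adjusted p = 0.0382). PTPRZ1, a receptor phosphatase of outer radial glia, and PAX6, a transcription factor of radial glia, lay just outside the threshold and were named after their values were seen. Their log2 fold changes had opposite signs, at 0.55 for PTPRZ1 (adjusted p = 0.0103) and at -0.45 for PAX6 (adjusted p = 0.011). PROM1 (CD133), also named after its values were seen, is reported by the paper as significantly lower upon MSI1 knockdown, at an FDR of 0.01 in edgeR. It was at 0.926 ± 0.163 FPKM in siC and at 0.584 ± 0.119 FPKM in siMSI1, without overlap and from 48 to 139 reads per library. Its log2 fold change was -0.59 (adjusted p = 0.134 in limma), and it passed the threshold in 1 of 15 alternatives.

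Both aquaporins among the markers are water channels. AQP4 (ENSG00000171885, chr18:26852043-26865771, minus strand) is the main water channel of astrocyte end-feet, where it sits next to blood vessels. AQP4 was at 23.9, 26.4 and 22.5 FPKM in siC replicates 1, 2 and 3. It was at 46.1, 43.6 and 37.8 FPKM in siMSI1 replicates 1, 2 and 3. Every siMSI1 library was above every siC library. The mean rose from 24.3 ± 2.0 FPKM to 42.5 ± 4.30 FPKM (SD, n = 3 each), with a log2 fold change of 0.80 (SE 0.096, 95% CI 0.58 to 1.03, adjusted p = 0.00127 in limma). At least 1938 reads per siC library and 3252 reads per siMSI1 library stood behind these values. AQP4 passed the threshold in 16 of 16 processing alternatives, with a highest adjusted p of 0.0087. An antisense transcript on the opposite strand, AQP4-AS1, overlaps AQP4 and moved by 0.01 on the log2 scale (adjusted p = 0.982). The library preparation kept strand, but whether the counting used it is not given in the sources used here.

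AQP1 (ENSG00000240583, chr7:30911853-30925517, plus strand), a water channel of the choroid plexus that is also found in astrocytic tumors, stood at a far lower level than AQP4. The siC libraries held AQP1 at 1.73, 1.92 and 1.86 FPKM, and the siMSI1 libraries at 2.67, 2.40 and 3.43 FPKM. The groups did not overlap, but the siMSI1 libraries were spread widely, with replicate 3 the highest. The log2 fold change was 0.58 (SE 0.149, 95% CI 0.24 to 0.93), and its adjusted p of 0.0257 missed the threshold. Only 89 to 119 reads per siC library and 108 to 169 reads per siMSI1 library were counted on AQP1. It passed the threshold in 2 of 16 alternatives, both with voom on the recovered reads. The ratio of AQP4 to AQP1 within a library was 13.2 ± 1.01 in siC and 15.5 ± 3.91 in siMSI1 (SD, n = 3 each, two-sided exact permutation p = 0.4), and the groups overlapped in this ratio. With 3 libraries per group this test cannot show whether the changes of both channels differ.

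Among 9 other aquaporins, 2 were tested and 0 were called by limma, where 11.0% of all tested genes were called. An unadjusted p under 0.05 in limma was found for 1 of them, and voom called 0. AQP11, an intracellular channel and the most abundant of them, was at 2.86 ± 0.226 FPKM in siC and at 4.02 ± 0.170 FPKM in siMSI1 (log2 fold change 0.48, adjusted p = 0.0118). In 5 of these 9 genes, no library held more than 3 reads.

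HEPACAM (ENSG00000165478, chr11:124919205-124936412, minus strand), an adhesion protein that anchors MLC1 and connexins at astrocyte contacts, had 0 reads in all libraries, which allows up to 0.0433 to 0.0598 FPKM. Of 12 genes for its partners and for the end-foot complex that holds AQP4, 11 were tested, at a median log2 fold change of -0.10. Of these 11, 1 was called, where 11.0% of all tested genes were called. The gene not tested was KCNJ10, a potassium channel of astrocyte end-feet, which had at most 3 reads in a library. The called gene was GJA1, which encodes the gap junction protein connexin 43 and was also the most abundant, and it fell from 275 ± 21.6 FPKM to 180 ± 18 FPKM (log2 fold change -0.62, adjusted p = 0.00359). MLC1, a membrane protein of astrocyte junctions, was at 14.7 ± 1.05 FPKM in siC and at 18.4 ± 2.29 FPKM in siMSI1 (adjusted p = 0.0588). The ratio of AQP4 to MLC1 was 1.67 ± 0.250 in siC and 2.35 ± 0.526 in siMSI1 (two-sided exact permutation p = 0.2).

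**Figure D2:**
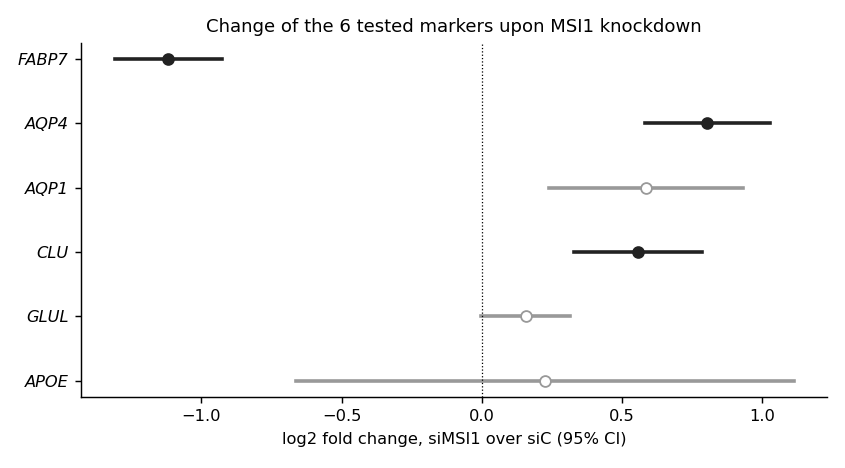
log2 fold change of siMSI1 over siC (x axis) with its 95% CI for the 6 tested markers; filled points passed an adjusted p of 0.01 in limma. FABP7 lies at -1.12, AQP4 at 0.80 and CLU at 0.56, and the interval of APOE, from -0.66 to 1.11, is the widest.

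Among the metabolic markers, GLUL (ENSG00000135821, chr1:182378098-182392206, minus strand) encodes glutamine synthetase, which converts glutamate to glutamine in astrocytes. Control libraries held GLUL at 48.9, 47.7 and 48.5 FPKM, and knockdown libraries at 51.3, 52.4 and 58.3 FPKM. All siMSI1 libraries were above all siC libraries, by a small margin. The means were 48.4 ± 0.614 FPKM in siC and 54.0 ± 3.77 FPKM in siMSI1 (SD, n = 3 each). The log2 fold change of 0.16 (SE 0.069, 95% CI -0.0027 to 0.32, adjusted p = 0.136) was within what the spread between libraries allows around 0. GLUL passed the threshold in 0 of 16 alternatives. Of 11 other genes of glutamate and glutamine handling, 8 were tested, at a median log2 fold change of 0.07. Of these 8, 1 was called, where 11.0% of all tested genes were called. SLC38A1, a glutamine importer, fell from 5.89 to 3.32 FPKM on average (log2 fold change -0.82, adjusted p = 0.0055). GOT2, the mitochondrial aspartate aminotransferase and the most abundant of the list, was at 68.9 FPKM in siC and at 70.1 FPKM in siMSI1. SLC1A3, the glutamate transporter of radial glia and astrocytes, was at 18.6 ± 0.292 FPKM in siC and at 21.8 ± 0.664 FPKM in siMSI1 (adjusted p = 0.028).

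ALDH1L1 (ENSG00000144908, chr3:126103562-126197994, minus strand), the cytosolic folate enzyme used as a pan-astrocyte marker, had 0 reads in all 6 libraries, which allows up to 0.0121 to 0.0167 FPKM. ALDH1L2, its mitochondrial relative, was at 0.115 to 0.253 FPKM and was not tested. Of 11 other enzymes of folate metabolism, 9 were tested, at a median log2 fold change of 0.04. Of these 9, 4 were called, 1 higher and 3 lower, where 11.0% of all tested genes were called. MTHFD1, which interconverts cytosolic one-carbon folates, rose (log2 fold change 0.50, adjusted p = 0.00206). SHMT1 and SHMT2, the cytosolic and mitochondrial serine hydroxymethyltransferases, fell by 0.77 (adjusted p = 0.00324) and 0.60 (adjusted p = 0.00289) on the log2 scale.

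CLU and APOE are apolipoproteins that astrocytes release. CLU (ENSG00000120885, chr8:27596917-27614700, minus strand), clusterin, is a secreted chaperone and was the most abundant of the 9 markers. Its level was 161, 142 and 171 FPKM in the siC libraries, and 219, 220 and 259 FPKM in those of siMSI1. The lowest siMSI1 library was above the highest siC library. The mean rose from 158 ± 15 FPKM to 233 ± 23.0 FPKM (SD, n = 3 each), with a log2 fold change of 0.56 (SE 0.099, 95% CI 0.33 to 0.79, adjusted p = 0.00621 in limma). The depth was high, with 16002 reads or more in every library. The call was nevertheless close to the threshold and was lost in 7 of 16 alternatives. It was lost without the filter on low genes (adjusted p = 0.0203), with plain moderation of the variances (adjusted p = 0.0221), and on leaving out siC replicate 1 (adjusted p = 0.0267), siC replicate 2 (adjusted p = 0.0214), siC replicate 3 (adjusted p = 0.0129), siMSI1 replicate 1 (adjusted p = 0.0135) or siMSI1 replicate 2 (adjusted p = 0.0153). The log2 fold change of CLU lay between 0.47 and 0.62 across the 16 alternatives.

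APOE (ENSG00000130203, chr19:44905791-44909393, plus strand), apolipoprotein E, the main lipid carrier of the brain, was barely present. Control libraries held 0.427, 0.479 and 0.698 FPKM of APOE and knockdown libraries 0.495, 0.453 and 1.08 FPKM, from 13 to 34 reads per library. The groups overlapped, and replicate 3 was the highest library in each group. The log2 fold change was 0.22 (SE 0.383, 95% CI -0.66 to 1.11, adjusted p = 0.709), and without siMSI1 replicate 3 it was -0.12. A change of APOE within this interval was not detectable at this depth.

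Of 15 genes of the lipoprotein pathway around APOE and CLU, 11 were tested, and their log2 fold changes had a median of 0.15. Limma called 2 of these 11, both higher, where 5.15% of all tested genes were called higher. VLDLR, a receptor for APOE-containing particles and reelin, rose from 9.83 ± 0.475 FPKM to 17.2 ± 0.691 FPKM (log2 fold change 0.80, adjusted p = 0.000445). MYLIP, a ubiquitin ligase that degrades lipoprotein receptors such as VLDLR, rose from 4.68 ± 0.519 FPKM to 6.96 ± 0.598 FPKM (log2 fold change 0.57, adjusted p = 0.00838). ABCA1, which loads cholesterol onto APOE, was at 3.55 FPKM in siC and at 3.03 FPKM in siMSI1 on average (log2 fold change -0.21, adjusted p = 0.25). NR1H2, the oxysterol receptor LXR-beta and the most abundant of the list by its mean over the 6 libraries, was at 43.3 FPKM in siC and at 39.6 FPKM in siMSI1 (adjusted p = 0.456).

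The order of the marker levels in FPKM changed in one place. In siC, mean levels fell from CLU over GLUL, FABP7, AQP4 and AQP1 to APOE, followed by HOPX, ALDH1L1 and HEPACAM. In siMSI1, AQP4 stood above FABP7 and the order was otherwise the same. Neighbours in either order did not overlap between libraries, other than HOPX, ALDH1L1 and HEPACAM at the low end. The ratio of FABP7 to AQP4 within each library was 1.49, 1.45 and 1.53 in siC and 0.369, 0.407 and 0.399 in siMSI1. In FPKM, each siMSI1 library therefore held more AQP4 than FABP7 and each siC library the reverse. The ratio was 1.49 ± 0.0382 in siC and 0.392 ± 0.0201 in siMSI1 (SD, n = 3 each, two-sided exact permutation p = 0.1, the smallest this design can give). This order rests on the gene lengths used, 2728 bases for FABP7 and 5995 bases for AQP4. Reads were more on AQP4 in every library, at 1938 to 2866 against 1348 to 1894 in siC and 3252 to 4078 against 591 to 685 in siMSI1. The ratio of CLU to GLUL was 3.27 ± 0.283 in siC and 4.31 ± 0.129 in siMSI1 (two-sided exact permutation p = 0.1).

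**Figure D3:**
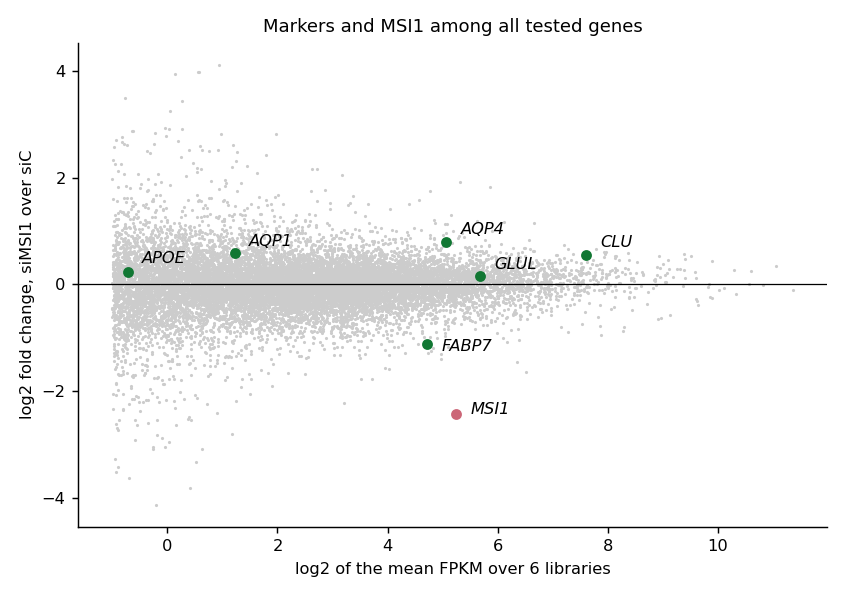
log2 of the mean FPKM over 6 libraries (x axis) against the log2 fold change of siMSI1 over siC (y axis) for the 15069 tested genes (grey), with the 6 tested markers in green and MSI1 in red. FABP7 lies low at -1.12, AQP4 and CLU lie among the higher-level genes with changes of 0.80 and 0.56, and APOE lies at the low-level end, where the spread is wide.

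GFAP and other astrocyte markers served to place the 9 genes. Of 26 other astrocyte markers, 18 were tested, and their log2 fold changes had a median of 0.16. Limma called 6 of these 18, 4 higher and 2 lower. Among all tested genes, 11.0% were called, 5.15% higher and 5.83% lower. GFAP, the intermediate filament protein of astrocytes, had 1.33, 1.57 and 1.99 FPKM in the siC libraries, all below the 4.14, 4.65 and 5.04 FPKM of the siMSI1 libraries. Its log2 fold change was 1.46 (adjusted p = 0.000905), and the ratio of GFAP to FABP7 within a library was 0.0454 ± 0.0111 in siC and 0.280 ± 0.0480 in siMSI1 (SD, n = 3 each, two-sided exact permutation p = 0.1). SPARCL1, a secreted synapse-promoting protein of astrocytes, rose (log2 fold change 0.75, adjusted p = 0.00272). ID3, an inhibitor of basic helix-loop-helix factors and the most abundant of the list by its mean over the 6 libraries, also rose (log2 fold change 0.58, adjusted p = 0.00335). GJA1, described above, and SOX9, a transcription factor of gliogenesis and of astrocytes, fell, SOX9 by 0.61 on the log2 scale (adjusted p = 0.000976). The list thus held called genes in both directions, and S100B and GJB6, a pair of commonly used markers named after their values were seen, had 0 reads in all libraries. With S100B, GJB6, ALDH1L1 and HEPACAM at 0, the line carried only a subset of the astrocyte repertoire in either group.

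Over all 15069 tested genes, 11.0% were called, 5.15% higher and 5.83% lower. Over the 8 lists of related genes together, 105 genes were listed, 72 were tested and 13 were called, 7 higher and 6 lower, with a median log2 fold change of 0.09. This number fell to 3 without siC replicate 1, to 6 without siC replicate 2 or 3, to 4 without siMSI1 replicate 1 and to 8 without siMSI1 replicate 2. GFAP, SOX9 and VLDLR passed in 16 of 16 alternatives, and the other 10 called genes lost the call in at least 1.

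**Figure D4:**
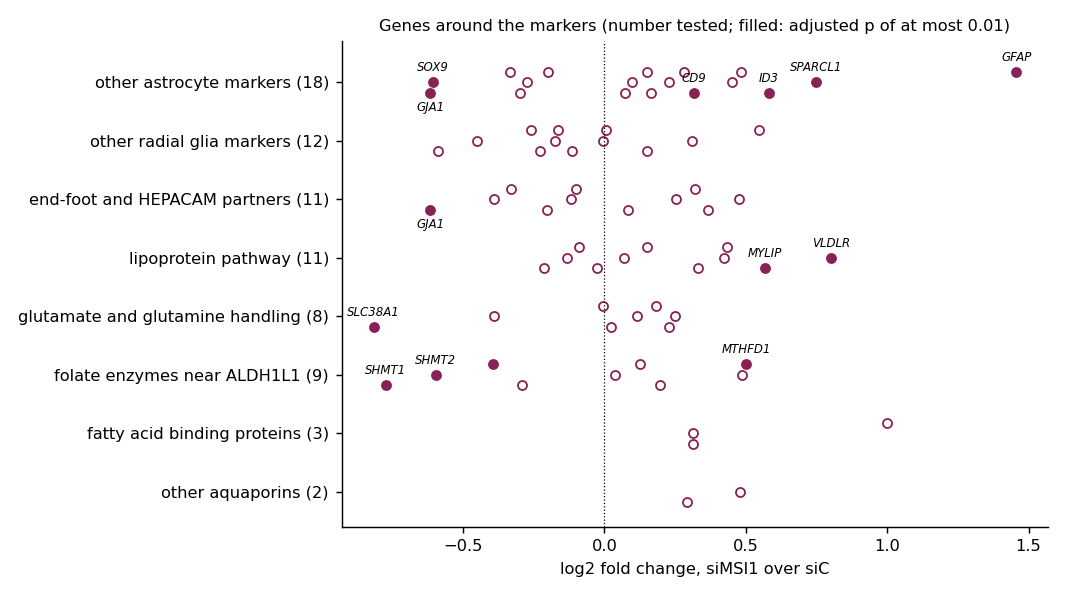
log2 fold change of siMSI1 over siC (x axis) of each tested gene in the 8 lists of related genes (rows, number tested in parentheses); filled points passed an adjusted p of 0.01 in limma, and most of them carry their names. Called genes lie on both sides of 0, with GFAP the highest at 1.46 and SLC38A1 the lowest at -0.82.

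Markers of other cell types were read in the same libraries, since in bulk RNA a change in the number of cells of a type and a change in RNA per cell cannot be told apart. Of 11 oligodendrocyte lineage markers, 9 had no more than 3 reads in any library, among them OLIG1, OLIG2, MOG and MAG at 0. The summed level, 56.1 to 59.5 FPKM in siC and 60.9 to 66.2 FPKM in siMSI1, came mainly from the 2 tested genes and not from the list as a whole. Of 11 neuron markers, 3 were tested, and the summed level was 12.6 to 15.1 FPKM in siC and 10.8 to 11.8 FPKM in siMSI1, with RBFOX3 at 0. The 8 microglia markers summed to less than 1 FPKM in every library, with AIF1 and P2RY12 at 0. In the neuron and oligodendrocyte lists, limma called 0 genes, with 1 gene in each at an unadjusted p under 0.05, and voom called 1 neuron marker and 0 oligodendrocyte lineage markers. Of 10 mesenchymal markers, 7 were tested and 2 were called lower, ACTA2 and CD44, where 5.83% of all tested genes were called lower. The summed level of this list was 200 to 213 FPKM in siC and 140 to 171 FPKM in siMSI1. For CD44, the paper reports faster mRNA decay in KNS42 cells depleted of MSI1. Whether the lower mesenchymal sum is tied to the changes of FABP7, AQP4 and CLU was not tested.

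The 3′UTRs of the 9 markers were searched for GUAG on the transcribed strand, in the canonical transcript of GENCODE release 44 on GRCh38. The word is short and common: 79.4% of 11299 tested protein-coding genes held it in their 3′UTR. The 3′UTR of FABP7 is 307 bases long and held 0 matches, where 38.3% of 3′UTRs of like length (within 10%) held at least 1. That of APOE, with 143 bases, and that of ALDH1L1, with 221 bases, also held 0 matches. AQP4 held 6 matches in 4168 bases, where 3′UTRs of like length held 12 in the median. CLU held 2 in 1324 bases (median 3 at like length), AQP1 held 5 in 1887 bases (median 5) and GLUL held 20 in 6307 bases (median 18). HOPX held 1 in 722 bases and HEPACAM held 2 in 1933 bases. The match nearest to the stop codon is given for both water channels and for GLUL, so that a called gene can be read beside genes that were not called, with the matched word in capitals. These lie in 3′UTR exons at chr18:26855460-26855489 (minus strand) for AQP4, chr7:30923641-30923670 (plus strand) for AQP1 and chr1:182384083-182384112 (minus strand) for GLUL, and are written 5′ to 3′ as RNA.
AQP4: cucguaaaaucuuGUAGaggcagaggcaaa
AQP1: cccgggcauccacGUAGggggcaggggcag
GLUL: cuguccaauaggcGUAGcuauccggacaga
A match describes only these letters and is not a measured binding site. FABP7, the only marker called lower, held no GUAG in its 3′UTR of 307 bases, where 38.3% of like length held at least 1. The called AQP4 and CLU and the uncalled AQP1 and GLUL all held matches, in longer 3′UTRs. Other words with a UAG core and other transcripts of these genes were not searched.

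**Figure D5:**
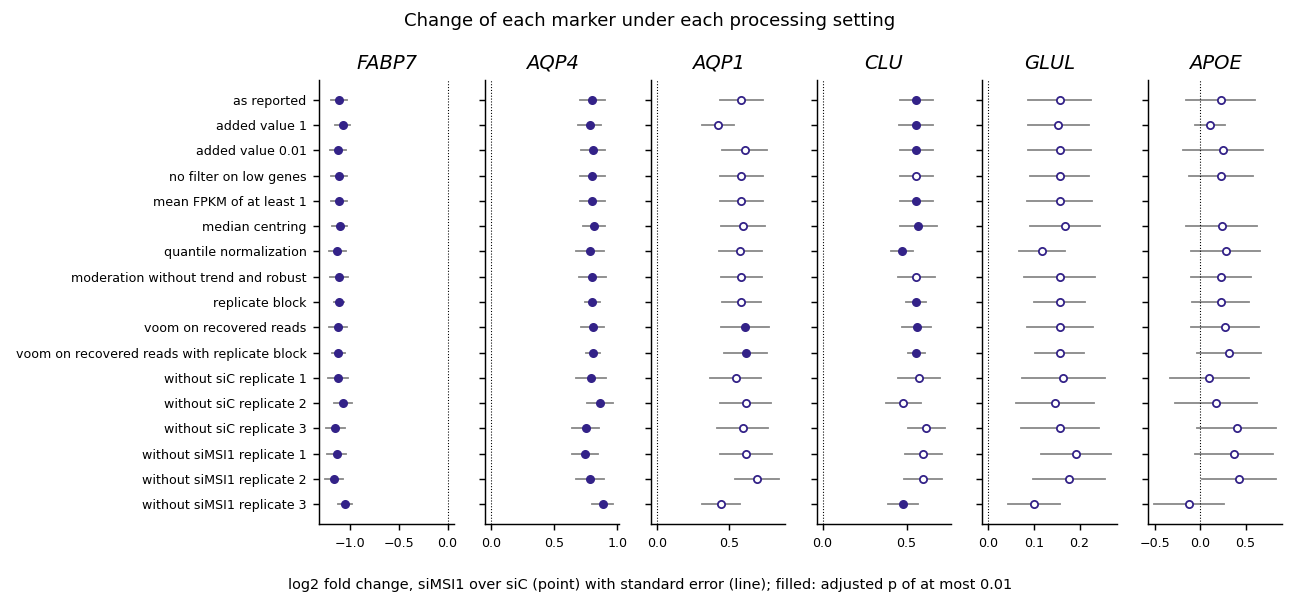
log2 fold change of siMSI1 over siC (x axis, scaled per marker) with its standard error for each tested marker under each processing setting (rows); filled points had an adjusted p of at most 0.01. FABP7 and AQP4 are filled in every row, CLU and AQP1 in some, and GLUL and APOE in none.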

How the data were processed

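Poly(A) RNA of KNS42 cells was sequenced in 6 libraries (siC, n = 3, and siMSI1, n = 3), grouped by the sample titles. The authors clipped reads with cutadapt 1.14, aligned them to GRCh38 with HISAT2 2.1.0, summarized them per gene with featureCounts 1.5.3 on Ensembl 89 and deposited FPKM per gene and library. The table also holds the authors' fold changes and p-values from edgeR 3.18.1, which were not used. Reads were recovered as FPKM times gene length over the value of 1 read and were whole, within 0.01, for 100% of the values above 0. Library scaling factors were 0.977 to 1.03. Floors of 3 reads cover counting error only. FPKM weighs all exons of a gene and does not resolve isoforms.

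Genes with a mean of at least 0.5 FPKM were fitted with limma 3.58.1 in R 4.3.3 on log2(FPKM + 0.1) (eBayes with trend and robust, no block). The Benjamini-Hochberg adjustment ran across all 15069 genes in the fit, and calls were made at 0.01. The scripts were tested on simulated data. Alternatives were an added value of 1 or 0.01, no filter or a mean of at least 1 FPKM, median centring, quantile normalization, plain moderation, the replicate number as a block, voom on recovered reads with and without that block, each library left out, and a threshold of 0.05. No pair of libraries in a group agreed within sampling noise.

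The 9 markers and the lists of related genes were chosen with earlier results of these data known. Named genes were the 9 markers, MSI1, called genes of each list (the 5 with the largest change where more were called), the most abundant gene of each list, preset partners (GFAP, GJA1, MLC1, SLC1A3, FABP5, ALDH1L2 and ABCA1), genes overlapping a marker and, for called markers, the 3 genes with the most similar profile. A few genes that this rule names are not reported here. Markers of neurons, oligodendrocyte lineage, microglia and mesenchymal cells and housekeeping genes were read as well. GUAG was searched on the transcribed strand of canonical 3′UTRs of GENCODE 44.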

Additional observations from a re-analysis of the deposited data

How the results depend on the processing

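Of 101 log2 fold changes of the 6 tested markers under alternatives, 90 kept their direction and their side of the threshold, 7 lost the call (all CLU), 3 gained it (all AQP1) and 1 turned its direction. That one was APOE, at -0.12 without siMSI1 replicate 3 and up to 0.43 without siMSI1 replicate 2, with 13 to 34 reads per library as the limit. The number of called markers, 3 as reported, was 2 to 4 in all alternatives and 2 to 3 with a library left out. Over all genes, 1655 were called as reported, and 792 without the filter on low genes, 847 with plain moderation, 2855 with voom, 5070 with voom and the replicate block, 3787 at a threshold of 0.05 and 528 (without siC replicate 1) to 1603 with a library left out. Among the genes of the 8 related lists, 13 were called as reported, and 4, 3, 21, 39 and 26 under the same settings in that order, and 3 to 13 with a library left out. The cause was not tested. The share of higher genes among all called genes was 46.9% as reported, 48.9% with median centring and 47.7% with quantile normalization.

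Replicate numbers follow the sample labels, and the study numbers the libraries differently elsewhere, so the block rests on the labels alone. Deviations of same-numbered libraries correlated at -0.0661, 0.0783 and 0.083, and not every library correlated best with its own number. With 3 libraries per group, these correlations cannot settle whether the numbers pair the samples. With the replicate block in limma, 2250 genes were called, against 1655 without it. Among them were the same number of markers, 3, and 17 genes of the related lists, and no marker changed its call. The block lowered the standard error of FABP7 from 0.082 to 0.049, of AQP4 from 0.096 to 0.061 and of CLU from 0.099 to 0.059. In voom, it raised the called genes from 2855 to 5070.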

Other observations

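The genes with the profile most like each called marker over the 6 libraries were taken from 13035 genes with a mean of at least 1 FPKM, as a description of libraries that share the contrast. For FABP7 they were CA8 (Pearson's r above 0.999, log2 fold change -0.95), DLX6-AS1 (r = 0.999, log2 fold change -1.25) and MCL1 (r = 0.998, log2 fold change -0.57). CA8 is a carbonic anhydrase-related protein without catalytic activity, and MCL1 is an inhibitor of apoptosis. For AQP4 they were DPY19L1 (r = 0.999, log2 fold change 0.72), UBP1 (r = 0.998, log2 fold change 0.29) and CBFB (r = 0.997, log2 fold change 0.32). For CLU they were TMEM132A (r = 0.999, log2 fold change 0.40), FBXL19 (r = 0.998, log2 fold change 0.58) and C8orf33 (r = 0.998, log2 fold change 0.36). High correlations are common here, since 760 genes exceeded r = 0.95 with FABP7, 533 with AQP4 and 651 with CLU.

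Of the 8 housekeeping genes, limma called 0, with 3 at an unadjusted p under 0.05 and 1 called by voom, and their median log2 fold change was -0.04. The 2 mesenchymal markers that fell were ACTA2, smooth muscle actin, by 0.61 on the log2 scale (adjusted p = 0.00445), and CD44, the hyaluronan receptor, by 0.46 on the log2 scale (adjusted p = 0.00303).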
